A study of Homo sapiens with 16 samples.

Results

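The genes described here are the chaperones, folding enzymes and degradation factors of the endoplasmic reticulum (ER), taken as a list of 45 symbols and matched to the gene symbols of the deposited expression table. Of the 45 symbols 44 had a row among the 23459 genes. The symbol ERO1LB had none; the same Entrez gene stands in the table as ERO1B, at 0.397 to 2.03 FPKM, and was not counted. The list goes by name and its rule uses no measured value, though it was chosen with earlier results of these data known. They comprise 11 chaperones and co-chaperones, 10 disulphide isomerases and other oxidoreductases, 4 prolyl isomerases, 13 degradation factors, 3 secreted or luminal stress proteins, and 3 stress sensors and regulators.

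Proteins that enter the ER are bound by chaperones, joined by disulphide bonds and turned at their prolines before they leave for the Golgi, and those that fail to fold are drawn back into the cytosol and handed to the proteasome. When unfolded protein builds up, the sensors IRE1 (gene ERN1), ATF6 and PERK switch on many of these genes together, which is called the unfolded protein response. Plasma cells, and the myeloma cells that derive from them, carry a large folding machinery because they make immunoglobulin.

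RNA was sequenced from human myeloma cell lines that had been given a short hairpin RNA (shRNA) against CD86, CD28 or Gapdh, or the empty vector pLK0.1, called Vec. CD28 is a costimulatory receptor, CD86 is one of its ligands, and Gapdh shRNA and Vec were the controls. Each was put into 4 backgrounds with 1 library per combination, 16 libraries in all: the lines KMS18, MM.1s and RPMI8226, and an RPMI8226 line that also overexpresses the anti-apoptotic protein Mcl1, called the Mcl1 line here. The 3 parental lines carry no overexpression, per the labels, and served as the replicates of each shRNA. The Mcl1 line is a single derived line, and the hairpins' number and sequences, and the time after delivery, were not stated in the labels.

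Levels are in FPKM, which scales fragments by exon length and library size, and differences are on the log2(FPKM + 1) scale. A difference between shRNAs was tested with limma over the 12 libraries of the parental lines with the line as a term, and counted as called at an adjusted p under 0.05 over 11316 genes. Each library held 3914513 to 5900955 reads in genes. CD86 stood at 54.9% ± 18.5 of Vec under its shRNA (SD, n = 3 lines), a difference that did not pass (limma adjusted p = 0.315), CD28 at 71.7% ± 7.14 under its own, which passed (adjusted p = 0.0295), and GAPDH at 32.7% ± 21.2 under its own, which did not (adjusted p = 0.999853). The 8 plasma cell markers summed were at 321 to 1008 FPKM under CD86 shRNA, 393 to 1159 under CD28 shRNA, 441 to 1277 under Gapdh shRNA and 430 to 1179 with Vec. T cell markers summed to 0.314 to 7.56 FPKM, with CD3D at 0 in every library, myeloid markers to at most 13.04, and stromal markers to 0.0597 to 0.841, with DCN and LUM at 0.

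All 44 members passed the filter of a mean of at least 1 FPKM. Averaged over the 16 libraries, 17 members stood at 100 FPKM or more, 18 between 20 and 100, and 9 under 20. The lectin chaperone CALR (calreticulin) lay at 395 to 801 FPKM over the 16 libraries and MZB1, a co-chaperone of antibody-secreting cells, at 369 to 868. The next members by mean were HSP90B1 (GRP94), an ER-resident member of the HSP90 family, at 315 to 735 FPKM, the protein disulphide isomerase P4HB at 273 to 508, and HSPA5 (BiP), the ER member of the HSP70 family, at 127 to 359. The lowest levels were those of CRELD1 at 1.5003 to 7.52, the prolyl isomerase FKBP14 at 2.51 to 9.02, WFS1 at 2.85 to 18.4 and EDEM2 at 5.93 to 16.1 FPKM. CRELD1 rested on 23 to 150 reads per library and is the least precisely measured member.

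CD86 shRNA went with lower levels in all 6 roles, and 7 of the single differences passed the test. Of 44 members 43 were lower than with Vec on average over the parental lines and EDEM2 was higher by 0.05. The median difference of the members was -0.35, beside 0.02 for all 11316 genes tested. Of the members 7 were called lower and 0 higher, where 0.627% of all genes were called, 0.566% lower and 0.0619% higher. The 7 are SVIP, WFS1, TXNDC12, MANF, TXNDC5, FKBP11 and MZB1, spread over all 6 roles. Members at an unadjusted p under 0.05 numbered 29 of 44, beside 1453 of all 11316 genes. In a bulk library fewer cells of a type and less RNA per cell cannot be told apart. The plasma cell marker SDC1 (syndecan-1) was also lower under CD86 shRNA, at 59.7, 69.9, 39.01 and 35.8 FPKM in KMS18, MM.1s, the Mcl1 line and RPMI8226, against 141, 166, 74.3 and 65.5 with Vec, and its part in the result was not tested.

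The shift was present in each background taken alone. The median member differed from Vec by -0.37 in KMS18, -0.43 in MM.1s, -0.27 in the Mcl1 line and -0.22 in RPMI8226, beside medians over all genes between 0.00 and 0.04. In all 4 backgrounds 31 of 44 members were lower (70.5%), against 11.5% of all genes, and 0 members were higher in all 4. Set against Gapdh shRNA in place of Vec, 35 of 44 members were lower in all 4 backgrounds (79.5%), against 1319 of 11316 genes. The reads of all members together made up 1.42%, 1.18%, 1.28% and 1.51% of the reads in genes under CD86 shRNA in KMS18, MM.1s, the Mcl1 line and RPMI8226, and 1.76%, 1.62%, 1.52% and 1.76% with Vec. That share was lower under CD86 shRNA than under any other shRNA or Vec of the same background.

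**Figure D1:**
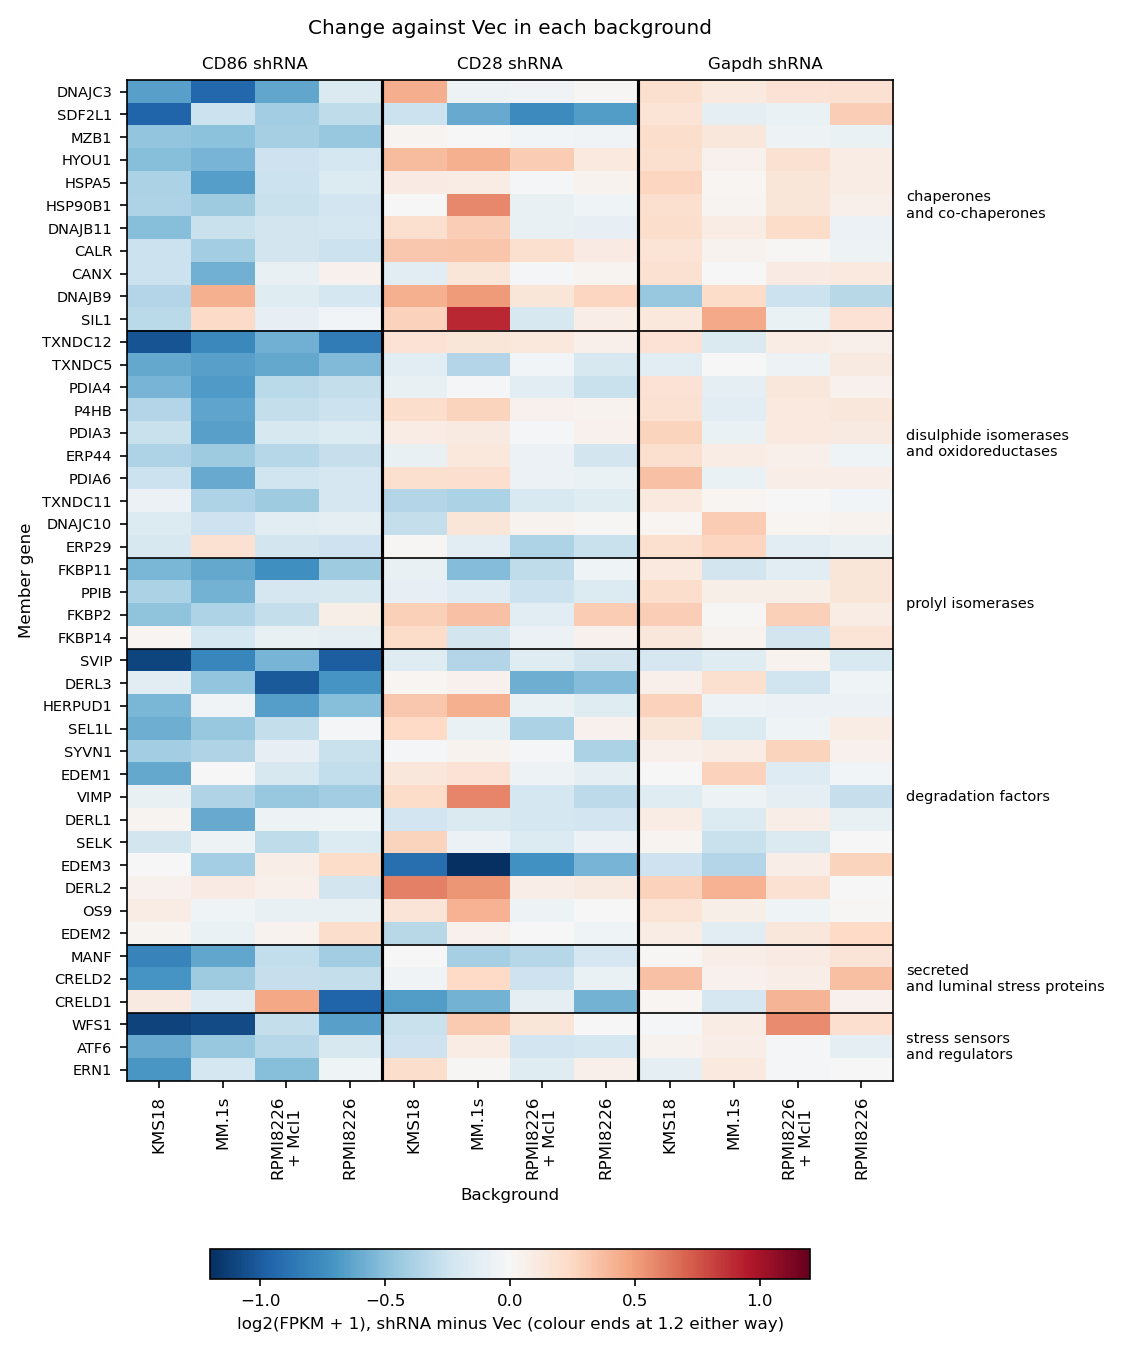
Difference from Vec on the log2(FPKM + 1) scale for the 44 members (rows, grouped by role) under CD86, CD28 and Gapdh shRNA in each background (columns, 1 library against 1 library each). Under CD86 shRNA 31 rows are below 0 in all 4 backgrounds, against 11 under CD28 shRNA and 1 under Gapdh shRNA.

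Chaperones come first by role. All 11 were below Vec under CD86 shRNA, with a median of -0.34, and MZB1 alone was called. MZB1 stood at 479.9, 397, 369 and 633 FPKM under CD86 shRNA in KMS18, MM.1s, the Mcl1 line and RPMI8226, against 769.99, 616, 467 and 821 under Gapdh shRNA and 666, 559.98, 487 and 868 FPKM with Vec. It was lower in every background and by nearly the same proportion, at 71.95% ± 1.03 of Vec in the parental lines (SD, n = 3). The difference was -0.47 (SE 0.07, adjusted p = 0.0171).

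HSPA5, the chaperone that binds many nascent chains in the ER and holds the stress sensors inactive, did not pass. Its levels were 207, 127, 239 and 302 FPKM under CD86 shRNA in KMS18, MM.1s, the Mcl1 line and RPMI8226, against 323, 205, 317 and 359 under Gapdh shRNA and 271, 201, 286 and 338 with Vec. CD86 shRNA was the lower in each pair, and the MM.1s pair was the farthest apart. The difference was -0.40 (SE 0.10, adjusted p = 0.114). HSP90B1, which folds integrins, Toll-like receptors and immunoglobulins, stood at 398, 365, 315 and 358 FPKM under CD86 shRNA, against 515, 491, 380.1 and 418 with Vec, a difference of -0.34 (SE 0.14, adjusted p = 0.324).

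Among the other chaperones DNAJC3 (P58IPK), a J-domain partner of HSPA5, had the largest estimate. It stood at 10.4, 9.83, 4.08 and 7.67 FPKM under CD86 shRNA, against 16.9, 19.9, 6.799 and 8.76 with Vec, a difference of -0.59 (SE 0.16, adjusted p = 0.157). HYOU1, a nucleotide exchange factor of HSPA5, differed by -0.43, the lectin chaperones CALR and CANX (calnexin) by -0.31 and -0.26, and the J-domain protein DNAJB11 by -0.33 and SDF2L1, a partner of the HSPA5 system, by -0.51. None of these passed. DNAJB9, a J-domain protein that restrains IRE1, and SIL1, the other exchange factor of HSPA5, were near 0 on average (-0.04 and -0.04). Both were higher than Vec in MM.1s and lower in the other 3 backgrounds.

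The promoters of these genes carry known stress elements, and are shown because nearly all members were lower together. Promoter sequences (250 bases before to 50 bases after the gene start, RefSeq, build GRCh38.p14) matched 40 of the 44 members; PDIA3, FKBP14, DERL1 and DERL3 had no entry. The ER stress element, CCAAT and CCACG with 9 bases of any kind between them, on either strand, which ATF6 binds together with NF-Y, was found in 6 of the 40 (15%), against 0.0916% of 27305 genes. Its sites are written from CCAAT to CCACG, with those letters in capitals.
HSPA5: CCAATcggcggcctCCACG
HSP90B1: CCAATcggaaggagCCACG
HSP90B1, opposite strand: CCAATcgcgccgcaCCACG
CALR, opposite strand: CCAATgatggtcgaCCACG
CANX: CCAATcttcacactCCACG
PDIA6: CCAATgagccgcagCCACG
CRELD2, opposite strand: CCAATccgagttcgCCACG
The second ER stress element, ATTGG and CCACG with 1 base between them, on either strand, was found in HERPUD1, HYOU1 and SDF2L1 (7.5% of the 40, against 0.0696% of all genes). No member held an exact match of both elements in these stretches. Only exact matches were counted, so variant or more distant elements would be missed.
HERPUD1: ATTGGgCCACG
HYOU1, opposite strand: ATTGGaCCACG
SDF2L1, opposite strand: ATTGGtCCACG
The core TGACGTGG, which spliced XBP1 and ATF6 can bind, was found in DNAJC10, HYOU1, TXNDC11 and TXNDC5 (4 of the 40, against 0.927% of all genes). In HYOU1 it lies beside the second element and overlaps its letters.

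The 250 bases before the start of HSPA5, on the minus strand at chr9:125241344-125241593 (GRCh38.p14), are given as an example, with the exact match in capitals.
HSPA5 promoter: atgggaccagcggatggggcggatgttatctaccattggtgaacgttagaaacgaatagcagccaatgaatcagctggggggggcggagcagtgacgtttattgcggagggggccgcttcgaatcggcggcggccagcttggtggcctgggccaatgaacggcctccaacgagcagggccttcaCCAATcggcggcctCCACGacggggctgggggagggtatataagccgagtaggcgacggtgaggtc
All 9 members with an exact match of 1 of the 2 stress elements were below Vec under CD86 shRNA, with a median of -0.37 and 0 called by limma. The 31 members with a promoter entry and no exact match of either had a median of -0.34, with 30 below Vec and 7 called. All 7 members called against Vec thus lie outside the 9. The split differed in other comparisons. Against CD28 shRNA 7 of the 9 were called lower under CD86 shRNA (median -0.51), and 12 of the 31 (median -0.38). Of all genes 4.1% were called lower there. In the Mcl1 line against RPMI8226 6 of the 9 and 11 of the 31 were called lower, where 14.9% of all genes were. These splits were not tested. A match of letters is a description and shows no binding.

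Many of the disulphide isomerases and other oxidoreductases join and reshuffle the disulphide bonds of folding proteins. All 10 members of this role were below Vec under CD86 shRNA, with a median of -0.36, and TXNDC12 and TXNDC5 were called. TXNDC12, a small thioredoxin-like ER protein, stood at 11.3, 9.43, 25.8 and 19.9 FPKM under CD86 shRNA in KMS18, MM.1s, the Mcl1 line and RPMI8226, against 27.3, 14.8, 41.5 and 38.2 under Gapdh shRNA and 24.1, 16.9, 38.9 and 36.5 with Vec. Each CD86 shRNA library was below the Vec library of its own background, and the parental lines averaged 52.4% ± 4.97 of Vec (SD, n = 3). The difference was -0.88 (SE 0.11, adjusted p = 0.0106).

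TXNDC5, a protein disulphide isomerase abundant in plasma cells, was lower by a like proportion in every background. Its levels were 12.4, 29.1, 15.1 and 18.004 FPKM under CD86 shRNA, against 17.7, 45.9, 22.7 and 28.5 under Gapdh shRNA and 19.4, 46.1, 23.6 and 26.4 with Vec. The parental lines stood at 64.9% ± 2.74 of Vec (SD, n = 3) and the Mcl1 line at 63.8%, a difference over the parental lines of -0.60 (SE 0.09, adjusted p = 0.0178). PDIA4 (ERp72) stood at 109, 119, 181 and 208 FPKM under CD86 shRNA, against 161, 192, 226 and 254 with Vec, and at -0.51 (SE 0.11, adjusted p = 0.068) did not pass.

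P4HB differed by -0.41, PDIA3 (ERp57), the partner of the lectin chaperones, by -0.36, PDIA6 by -0.36 and ERP44, which retrieves proteins from the Golgi, by -0.36. None of these passed. TXNDC11 differed by -0.21. The smallest estimates of this role were those of ERP29 (-0.08) and of DNAJC10, a reductase that serves degradation (-0.17).

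Of the 4 prolyl isomerases FKBP11, which plasma cells express, was called. It stood at 77.4, 31.4, 21.6 and 30.7 FPKM under CD86 shRNA in KMS18, MM.1s, the Mcl1 line and RPMI8226, against 124, 41.5, 33.5 and 46.1 under Gapdh shRNA and 114, 48.5, 36.7 and 41.6 with Vec. The levels of the KMS18 pair were well above those of the other backgrounds, and the parental lines averaged 68.8% ± 4.67 of Vec (SD, n = 3), a difference of -0.53 (SE 0.10, adjusted p = 0.0421). PPIB (cyclophilin B) differed by -0.38 (SE 0.08, adjusted p = 0.0701), FKBP2 by -0.26 and FKBP14 by -0.10.

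Degradation factors were less uniform: 12 of 13 were below Vec under CD86 shRNA, with a median of -0.29, and SVIP was called. SVIP, a small protein that binds VCP (p97) and inhibits ER-associated degradation, had the largest difference of the 44 members. It stood at 84.6, 93.98, 31.4 and 26.3 FPKM under CD86 shRNA in KMS18, MM.1s, the Mcl1 line and RPMI8226, against 159, 147, 48.3 and 46.5 under Gapdh shRNA and 183, 162, 46.8 and 52.999 with Vec. Every CD86 shRNA library was below its Vec library, and the parental lines averaged 51.2% ± 5.96 of Vec (SD, n = 3). The difference was -0.96 (SE 0.09, adjusted p = 0.00255).

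HERPUD1, a stress-induced scaffold of the degradation complex, stood at 89.2, 136, 66.5 and 99.3 FPKM under CD86 shRNA, against 131, 141, 106 and 142 with Vec. It was close to Vec in MM.1s and lower in the other 3 backgrounds, and at -0.37 (SE 0.14, adjusted p = 0.306) did not pass. DERL3, a derlin of secretory cells thought to help move proteins out of the ER, stood at 55.2, 69.5, 6.11 and 22.5 FPKM under CD86 shRNA, against 60.2, 96.9, 13.3 and 37.5 with Vec. In DERL3 the KMS18 pair was the closest and the Mcl1 pair the farthest apart in proportion, and the difference was -0.44 (SE 0.13, adjusted p = 0.178). The core ubiquitin ligase SYVN1 (HRD1) and its adaptor SEL1L differed by -0.35 and -0.35. VIMP and SELK, selenoproteins that bind the derlins, differed by -0.29 and -0.15, and the derlins DERL1 and DERL2 by -0.21 and -0.02. The lectin OS9 was at -0.02, and EDEM1, EDEM2 and EDEM3, which trim mannose from misfolded glycoproteins, at -0.30, 0.05 and -0.07.

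The secreted and luminal stress proteins included the called member MANF, a stress-induced protein that binds HSPA5. MANF stood at 96.99, 72.9, 92.8 and 111 FPKM under CD86 shRNA in KMS18, MM.1s, the Mcl1 line and RPMI8226, against 171, 119, 122 and 165 under Gapdh shRNA and 169, 113, 114 and 148 with Vec. It was the lower of the pair in each background, at 65.4% ± 8.68 of Vec in the parental lines (SD, n = 3), a difference of -0.61 (SE 0.11, adjusted p = 0.0324). CRELD2 differed by -0.47 (SE 0.14, adjusted p = 0.193). CRELD1 stood at 3.28, 4.11, 4.24 and 3.22 FPKM under CD86 shRNA, against 2.98, 4.68, 2.79 and 7.24 with Vec, lower in MM.1s and RPMI8226 and higher in KMS18 and the Mcl1 line.

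All 3 stress sensors and regulators were below Vec in all 4 backgrounds under CD86 shRNA. WFS1 (wolframin), an ER membrane protein that limits ATF6, was called: it stood at 2.85, 6.37, 5.39 and 4.005 FPKM under CD86 shRNA, against 7.22, 15.5, 10.6 and 8.03 under Gapdh shRNA and 7.35, 14.5, 6.81 and 6.84 with Vec. MM.1s and KMS18 had the farthest pairs, and the parental lines averaged 47.1% ± 10.3 of Vec (SD, n = 3), a difference of -0.95 (SE 0.15, adjusted p = 0.0187). ATF6 itself differed by -0.42 (SE 0.13, adjusted p = 0.205) and ERN1 by -0.32 (SE 0.14, adjusted p = 0.376). XBP1, whose mRNA IRE1 splices, stood at 167, 257, 139.7 and 164 FPKM under CD86 shRNA, against 184, 306, 181 and 179.7 with Vec, a difference of -0.17 (SE 0.08, adjusted p = 0.383).

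**Figure D2:**
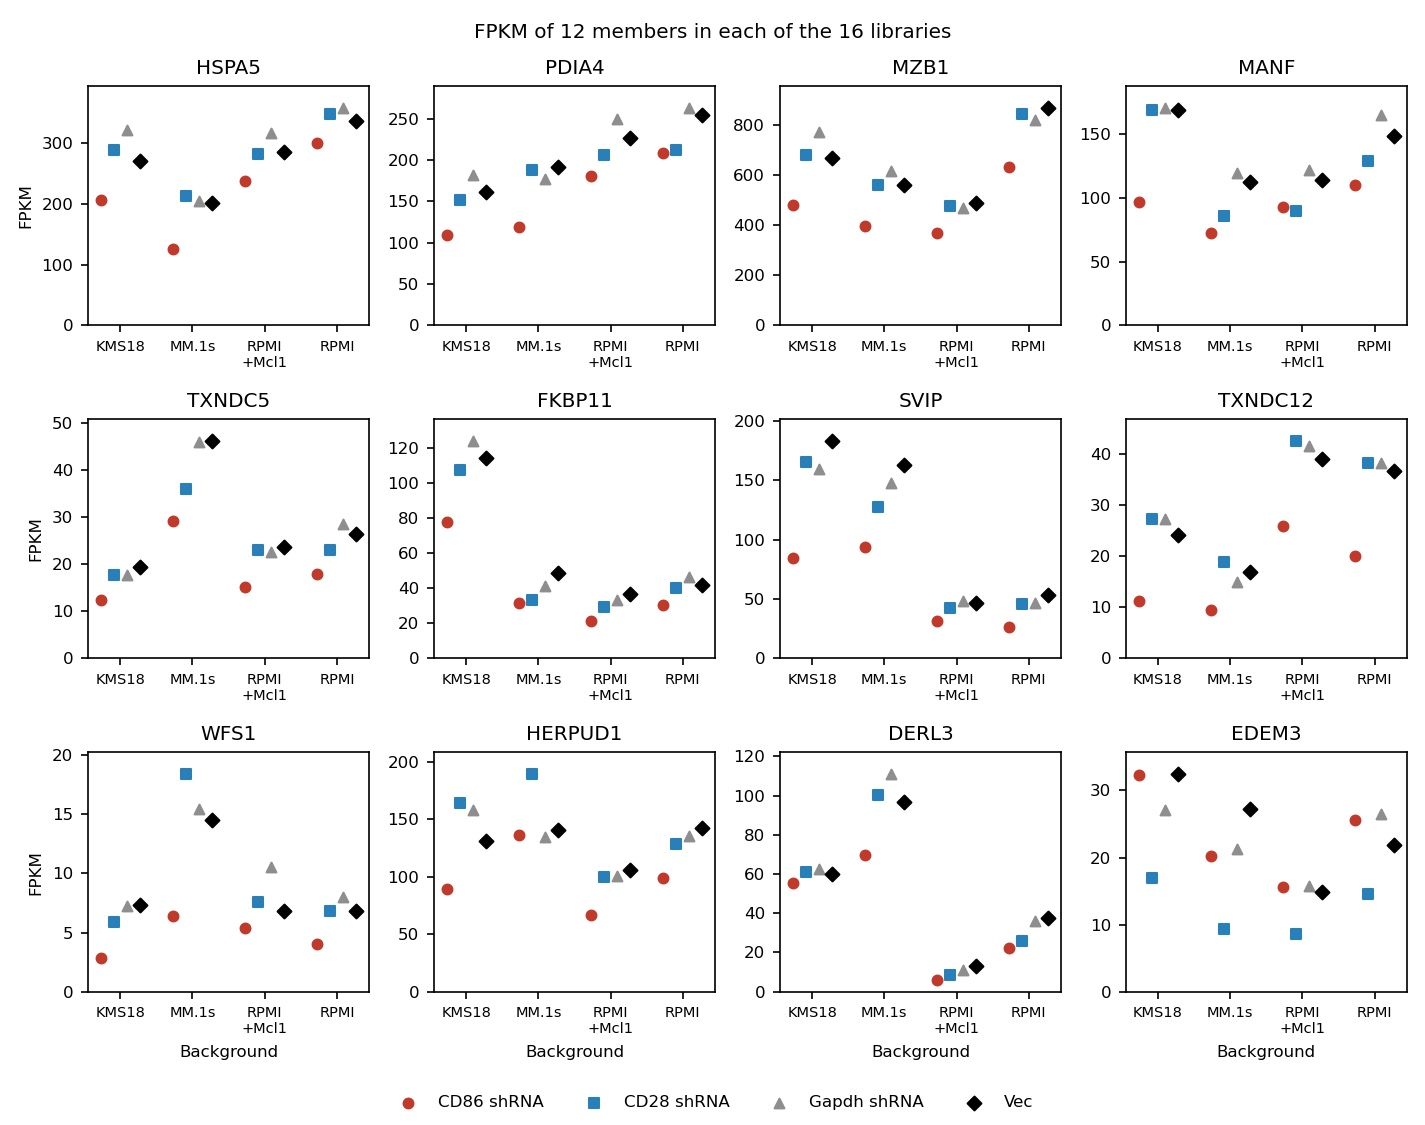
FPKM (linear axis from 0) of 12 members in each of the 16 libraries, by background, 1 point per library, with CD86, CD28 and Gapdh shRNA and Vec from left to right. In SVIP, TXNDC12, TXNDC5, MZB1, WFS1, HSPA5, PDIA4, FKBP11 and DERL3 the CD86 shRNA point is the lowest of the 4 in every background, and in EDEM3 the CD28 shRNA point is.

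Fewer members were called with a line left out. Without MM.1s 1 member passed (SVIP), without RPMI8226 0 and without KMS18 0, where 5, 9 and 0 of all genes were called by limma and 1090, 1301 and 906 had an unadjusted p under 0.05. The median member was then at -0.30, -0.41 and -0.33. Against the mean of Vec and Gapdh shRNA 16 members were called lower, where 1.81% of all genes were called. The authors' deposited table had 15 members lower under CD86 shRNA at a false discovery rate under 0.05, where 1.55% of its 14975 genes were. They are the 7 called here and HSPA5, HYOU1, DNAJC3, PDIA4, P4HB, PPIB, DERL3 and ATF6. At a rate under 0.01 there were 9, where 1.06% of its genes were lower. The authors' own mark of significance was set for these 9 and not for HSPA5, HYOU1, P4HB, PPIB, DERL3 and ATF6.

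The members with the 3 largest falls shared letters in their 3′ UTR. Hairpins can lower mRNAs other than their target when a short stretch of the hairpin pairs with the 3′ UTR, so 3′ UTRs (GENCODE v29, 1 transcript per gene) were searched for runs of 7 letters. Among 6223 such heptamers held by at least 1000 of 10416 tested 3′ UTRs, TCAAGCA and TTCAAGC had the lowest mean difference under CD86 shRNA. They overlap in 6 letters and were picked on these same differences, so what follows is a description with no test. Of the members 10 (22.7%) hold at least 1, against 17.0% of all genes. SVIP, WFS1 and TXNDC12 are the members with the 3 largest falls, and DNAJC3 has the largest estimate among chaperones. Sites of these members are shown with the heptamer letters in capitals and 9 bases on each side.
SVIP: acgttgattTTCAAGCttagagaat
WFS1: tcccccaccTTCAAGCAccctgttcc
TXNDC12: actcaaaccTTCAAGCcctaggtgt
DNAJC3, first of 3 sites: ttaatgaaaTCAAGCAttttaattc
The other carriers were ATF6, HERPUD1, ERP44, ERN1, DNAJC10 and DERL2.

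Members without either heptamer were lower as well. The 10 carriers had a median of -0.39 under CD86 shRNA and were all below Vec. The 34 members without either heptamer had a median of -0.34, with 33 below Vec. By background the median of the carriers was -0.63 in KMS18, -0.44 in MM.1s, -0.42 in the Mcl1 line and -0.25 in RPMI8226, and that of the 34 was -0.35, -0.42, -0.25 and -0.21 in the same order. MANF, TXNDC5, FKBP11 and MZB1, the remaining called members, hold neither heptamer. The 3′ UTRs of the carriers are longer, with a median of 3696 bases against 765.5 in the 34, and the part of the hairpin itself in the members' levels was not tested.

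**Figure D3:**
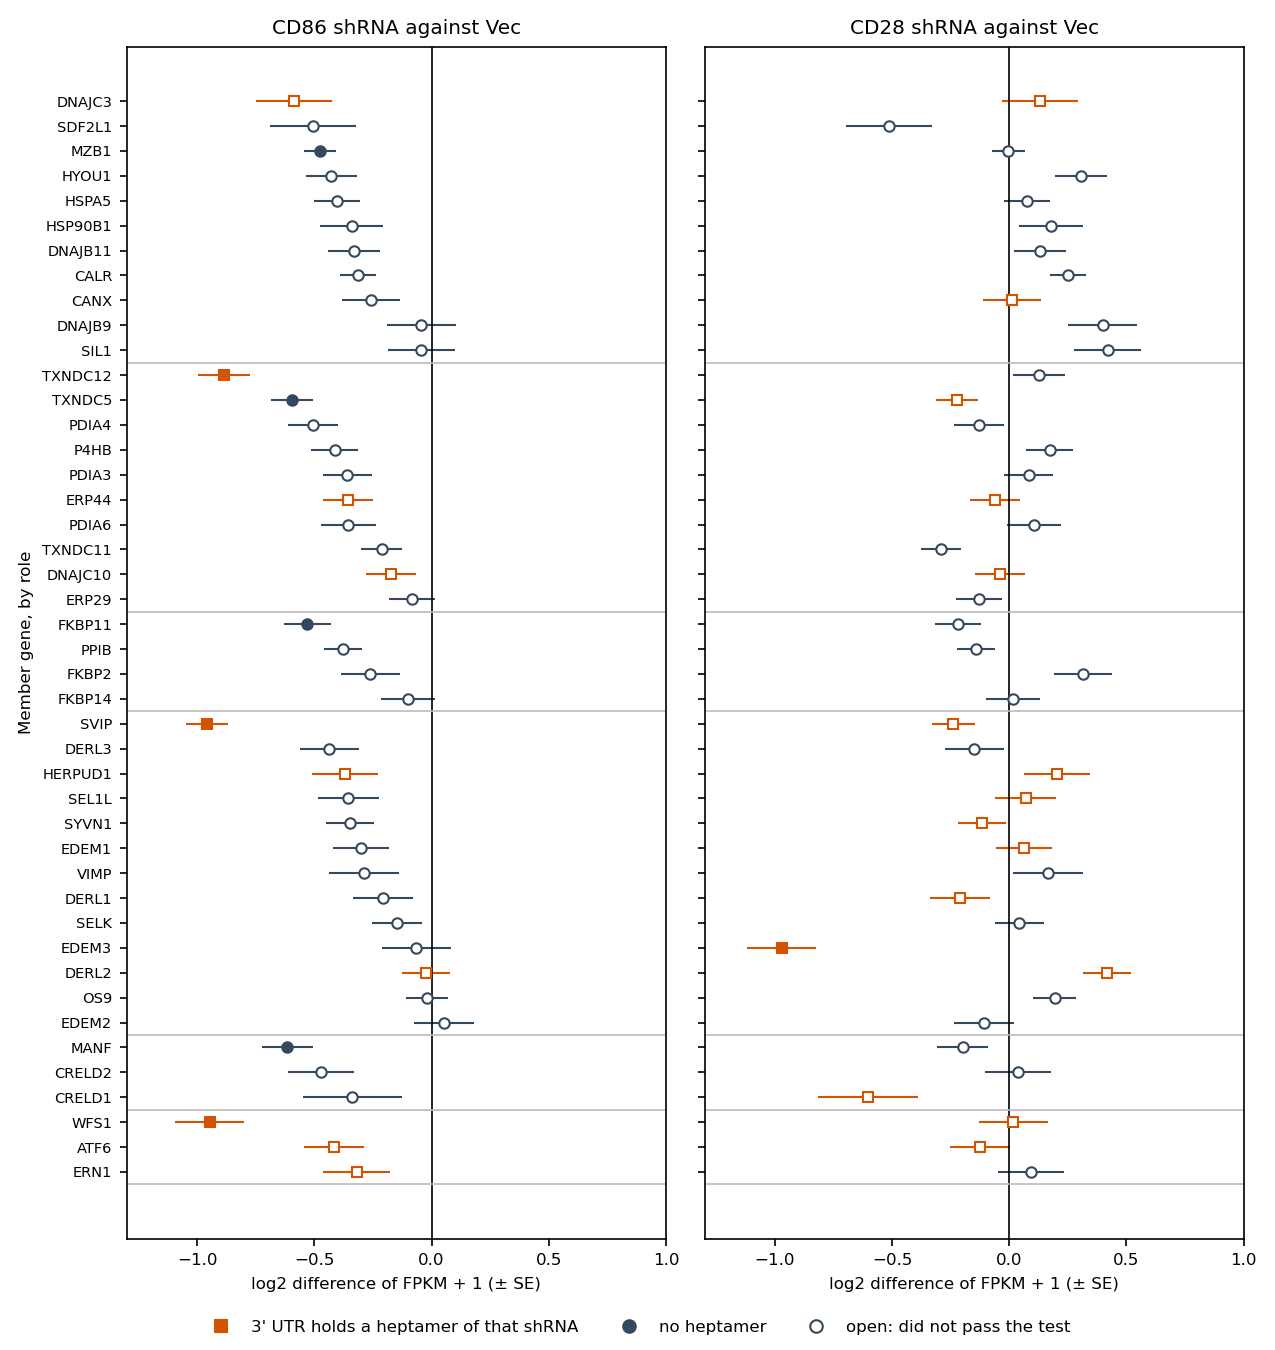
Difference from Vec on the log2(FPKM + 1) scale with its standard error for each member by role, under CD86 shRNA (left panel) and CD28 shRNA (right panel), over the 3 parental lines. Filled marks passed the test and squares hold a heptamer of that shRNA in the 3′ UTR: 7 filled marks at the left, 3 of them squares, and EDEM3 alone at the right.

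Under CD28 shRNA the members lay on both sides of Vec. Of 44 members 25 were above Vec and 19 below, with a median of 0.03 beside 0.00 for all genes. EDEM3 alone was called lower and 0 were called higher, where 2.83% of all genes were called, 2.11% lower and 0.716% higher. These differences and those under CD86 shRNA share the Vec libraries. With 1 of 44 members called, their share is near that of all genes.

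EDEM3, an ER mannosidase-like protein that marks misfolded glycoproteins for degradation, stood at 16.9, 9.33, 8.57 and 14.6 FPKM under CD28 shRNA in KMS18, MM.1s, the Mcl1 line and RPMI8226, against 32.4, 27.3, 14.8 and 21.8 with Vec. CD28 shRNA was the lowest of the 4 libraries in each background. The parental lines averaged 50.98% ± 16.3 of Vec (SD, n = 3), a difference of -0.97 (SE 0.15, adjusted p = 0.00867). Without MM.1s or without KMS18 it did not pass, and 1424 and 1558 of all genes then had an unadjusted p under 0.05. Its relatives EDEM1 and EDEM2 differed by 0.06 and -0.11.

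EDEM3 holds both heptamers whose carriers had the lowest mean difference under CD28 shRNA, CTGTGTT and TGTGTTA, chosen in the same way. Its 2 sites are shown with the heptamer letters in capitals.
EDEM3, first site: tggagcatgCTGTGTTAgaattgacc
EDEM3, second site: tatggtgacCTGTGTTtaaaaaaaa
Of the members 16 hold 1 of these heptamers (36.4%), against 27.6% of all genes. Their median under CD28 shRNA was -0.05, with 9 of 16 below Vec, and that of the 28 members without them was 0.08, with 10 of 28 below. The 3′ UTRs of the 16 are longer as well, with medians of 3433 and 611 bases. DERL2 holds 3 of these heptamers, as many as EDEM3, and was higher than Vec in every background under CD28 shRNA. DNAJC10 and DERL1 hold more, 6 and 5. DERL1 was below Vec in every background, and DNAJC10 lay on both sides of it. The part of the letters was not tested.

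Several chaperones were above Vec under CD28 shRNA without passing. SIL1 differed by 0.42 (SE 0.14, adjusted p = 0.14), DNAJB9 by 0.40 (SE 0.15, adjusted p = 0.166), HYOU1 by 0.31 (SE 0.11, adjusted p = 0.152) and CALR by 0.25 (SE 0.08, adjusted p = 0.105). DERL2 had the next smallest p after EDEM3, with a difference of 0.42 (SE 0.10, adjusted p = 0.0601), and was higher than Vec in every background. HSPA5 stood at 289, 214, 282 and 348 FPKM under CD28 shRNA in KMS18, MM.1s, the Mcl1 line and RPMI8226, a difference from Vec of 0.08 (SE 0.10, adjusted p = 0.725). HSP90B1 differed by 0.18 (SE 0.14, adjusted p = 0.519), with 515, 735, 358 and 405 FPKM under CD28 shRNA. Its MM.1s library was the highest of the 16 and the others lay near their Vec libraries. Of the members called under CD86 shRNA, TXNDC5 stood at 17.7, 35.9, 23.1 and 23.1 FPKM under CD28 shRNA, FKBP11 at 107, 33.5, 29.5 and 40.1 and MANF at 169, 85.4, 89.9 and 129. These 3 were below Vec in every background, though MANF in KMS18 differed by just -0.0008. Over the parental lines their differences were -0.22, -0.22 and -0.20, and they did not pass. SVIP was also below Vec in every background, at -0.15, -0.35, -0.14 and -0.22 in the same order, and did not pass. TXNDC12 was above Vec in every background, and WFS1 and MZB1 lay on both sides of it. PDIA4, HERPUD1 and DERL3 differed by -0.13, 0.20 and -0.15 and did not pass.

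The counts differed between backgrounds: 20 of 44 members were below Vec under CD28 shRNA in KMS18, 17 in MM.1s, 35 in the Mcl1 line and 26 in RPMI8226. The medians of the members were 0.03, 0.09, -0.08 and -0.06 in the same order. Of all 11316 genes 5671, 5680, 5772 and 5571 were below Vec in that order. SDF2L1 was lower than Vec in every background under CD28 shRNA, at 59.96, 36.3, 23.4 and 22.9 FPKM against 71.8, 55.8, 40.6 and 37.01 with Vec, and at -0.51 (SE 0.18, adjusted p = 0.153) did not pass. The CD28 shRNA library was the shallowest of its background each time.

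Gapdh shRNA, the control hairpin, gave 0 called members in either direction by limma, by which 0% of all genes were called, and 0 with voom weights. No member had an unadjusted p under 0.05, against 402 of 11316 genes. The estimates leaned upward: 36 of 44 members were above Vec, with a median of 0.08. Of all 11316 genes 5316 were above Vec, with a median of -0.009. HSPA5, HSP90B1, PDIA4, HERPUD1 and DERL3 differed by 0.12, 0.10, 0.04, 0.05 and 0.07. The lowest member was DNAJB9 at -0.19 and the highest CRELD2 at 0.26. SVIP was below Vec in KMS18 (-0.20), MM.1s (-0.14) and RPMI8226 (-0.19) and above it in the Mcl1 line (0.04).

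The direct comparison of both knockdowns does not use Vec as its baseline and gave more calls. Under CD86 shRNA 20 of 44 members were lower than under CD28 shRNA and 1 was higher, where 9.51% of all genes were called, 4.1% lower and 5.41% higher. The median member differed by -0.41, beside 0.03 for all genes. By role 7 of 11 chaperones were lower, 6 of 10 oxidoreductases, 1 of 4 prolyl isomerases, 3 of 13 degradation factors, 2 of 3 secreted or luminal stress proteins and 1 of 3 sensors and regulators. In all, 7 members passed without MM.1s, 14 without RPMI8226 and 2 without KMS18, where 1.52%, 4.79% and 1.22% of all genes did.

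CALR stood at 532, 395, 601 and 572 FPKM under CD86 shRNA in KMS18, MM.1s, the Mcl1 line and RPMI8226, against 795, 668, 801 and 733 under CD28 shRNA. CD86 shRNA was the lower in every background, and the difference was -0.56 (SE 0.08, adjusted p = 0.0024). HYOU1 stood at 59.8, 69.4, 111 and 134 FPKM under CD86 shRNA, against 111, 139, 163 and 168 under CD28 shRNA, a difference of -0.73 (SE 0.11, adjusted p = 0.00386). CALR and HYOU1 were both above Vec under CD28 shRNA and below it under CD86 shRNA, in all 4 backgrounds.

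P4HB followed with 303, 273, 367 and 375 FPKM under CD86 shRNA, against 449, 508, 464 and 461 under CD28 shRNA, a difference of -0.58 (SE 0.10, adjusted p = 0.00706). FKBP2 stood at 58.8, 35.6, 63.4 and 93.9 FPKM under CD86 shRNA, against 101, 59.5, 70.5 and 110.1 under CD28 shRNA, a difference of -0.58 (SE 0.12, adjusted p = 0.0201). Each of these pairs was ordered alike in all 4 backgrounds. HSPA5 differed by -0.48 (SE 0.10, adjusted p = 0.0159) and HSP90B1 by -0.52 (SE 0.14, adjusted p = 0.038), and both passed here though neither did against Vec.

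TXNDC12, SVIP, WFS1 and MZB1 had small p-values in this comparison too. TXNDC12 stood at 27.3, 18.8, 42.5 and 38.2 FPKM under CD28 shRNA and differed by -1.01 (SE 0.11, adjusted p = 0.000902), SVIP at 165, 127, 42.4 and 45.5 with a difference of -0.72 (SE 0.09, adjusted p = 0.0017). WFS1 stood at 5.92, 18.4, 7.62 and 6.85 FPKM under CD28 shRNA and differed by -0.96 (SE 0.15, adjusted p = 0.00432). MZB1 stood at 680.5, 559, 475 and 845 and differed by -0.47 (SE 0.07, adjusted p = 0.00346). These 4 were nearer to Vec under CD28 shRNA than under CD86 shRNA in every parental line.

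PDIA4, at -0.38 (SE 0.11, adjusted p = 0.0485), and HERPUD1, at -0.57 (SE 0.14, adjusted p = 0.0317), were also called lower under CD86 shRNA than under CD28 shRNA. DERL3, at -0.29 (SE 0.13, adjusted p = 0.173), was not. EDEM3 was the member called higher, at 32.3, 20.3, 15.7 and 25.6 FPKM under CD86 shRNA against 16.9, 9.33, 8.57 and 14.6 under CD28 shRNA, a difference of 0.90 (SE 0.15, adjusted p = 0.00572). The authors' deposited table has 27 members lower and EDEM3 higher in this comparison at a false discovery rate under 0.05, where 884 of its 14975 genes were lower (5.9%) and 661 higher. At a rate under 0.01 it has 16 lower and EDEM3 higher, where 517 genes were lower (3.45%) and 362 higher. The authors' own mark of significance was set for these members alone.

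Genes of the same pathways outside the list were counted in the same way. Of 28 other folding genes tested, 1 was called under CD86 shRNA against Vec: PRDX4, a peroxiredoxin that feeds oxidation of disulphides in the ER, at -0.58 (SE 0.10, adjusted p = 0.0285), with a median over the 28 of -0.13. Of 26 other degradation genes 0 were called by limma, with 6 at an unadjusted p under 0.05 and a median of -0.03. Of 15 other stress regulators 0 were called, with 3 at an unadjusted p under 0.05 and a median of -0.12. Of all 11316 genes 0.627% were called in this comparison and 1453 had an unadjusted p under 0.05. Under CD28 shRNA against Vec 1 of these genes was called, UBE2G2, a ubiquitin-conjugating enzyme of the degradation pathway, at -0.44 (SE 0.08, adjusted p = 0.0155). There 2.83% of all genes were called.

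Between both knockdowns 4 of 28 other folding genes were called lower under CD86 shRNA and 0 higher. Of all genes 4.1% were called lower and 5.41% higher. The 4 include PRDX4 (-0.55), the retrieval receptor KDELR1 (-0.36) and UGGT1 (-0.47), the glucosyltransferase that sends unfolded glycoproteins back to the lectin chaperones. Of the 26 other degradation genes 3 were lower, among them MAN1B1 (-0.47), and 2 higher, among them UBE2G2 (0.62). Of the 15 regulators 3 were lower, among them PPP1R15A (GADD34), at -0.72, and XBP1 differed by -0.00 (SE 0.08, adjusted p = 0.989).

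Levels of many members differed between the lines themselves. Of 44 members 30 differed between KMS18 and MM.1s (19 higher and 11 lower in KMS18), where 65.3% of all genes did. Between KMS18 and RPMI8226 28 differed (15 higher and 13 lower), where 70.3% of all genes did, and between MM.1s and RPMI8226 35 did (15 higher and 20 lower), where 69.1% of all genes did. These shares are near those of all genes and say nothing particular about the members. Each line is a single source, so these p-values measure the spread between its 4 libraries. In 20 of 44 members the highest line mean was at least 2-fold the lowest.

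KMS18 had the highest FKBP11 and ERP44. FKBP11 averaged 106 ± 19.99 FPKM in KMS18 (SD, n = 4 libraries) and 38.7 ± 7.84 in MM.1s, a difference of 1.43 (SE 0.09, adjusted p = 9.74e-08). ERP44 averaged 42.005 ± 6.795 FPKM in KMS18 and 11.2 ± 1.12 in RPMI8226, a difference of 1.81 (SE 0.09, adjusted p = 1.34e-08). The ranges of these libraries did not overlap in either pair. EDEM2 also led in KMS18 against MM.1s (1.07).

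SVIP was at 148 ± 43.4 FPKM in KMS18 (SD, n = 4), 133 ± 29.6 in MM.1s and 42.8 ± 11.5 in RPMI8226. KMS18 and MM.1s did not differ beyond their spread, at 0.13 (SE 0.08, adjusted p = 0.174), and both were above RPMI8226 (1.75 and 1.63). MM.1s had the highest DERL3, at 94.4 ± 17.6 FPKM, against 30.5 ± 7.43 in RPMI8226, and the highest TXNDC11, an oxidoreductase linked to degradation, at 181 ± 27.96, against 62.04 ± 4.05 in RPMI8226. TXNDC5 was the largest fall in KMS18 against MM.1s (-1.17), with WFS1 (-1.08) and CRELD2 (-1.07) next.

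RPMI8226 had more of the proline and oxidation enzymes PPIB, FKBP14 and TXNDC12 than MM.1s. In MM.1s PPIB averaged 144 ± 26.8 FPKM, against 348 ± 38.4 in RPMI8226, a difference of -1.28 (SE 0.07, adjusted p = 2.98e-08). FKBP14 and TXNDC12 differed by -1.25 and -1.09 in MM.1s against RPMI8226. CRELD2, ERN1 and DNAJC10 were the largest falls in KMS18 against RPMI8226, at -1.65, -1.18 and -1.14. P4HB and HERPUD1 had line means within 1.12-fold and 1.19-fold of each other. SELK was as even. RefSeq lists pseudogenes of SELK, and whether they share its reads was not tested.

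**Figure D4:**
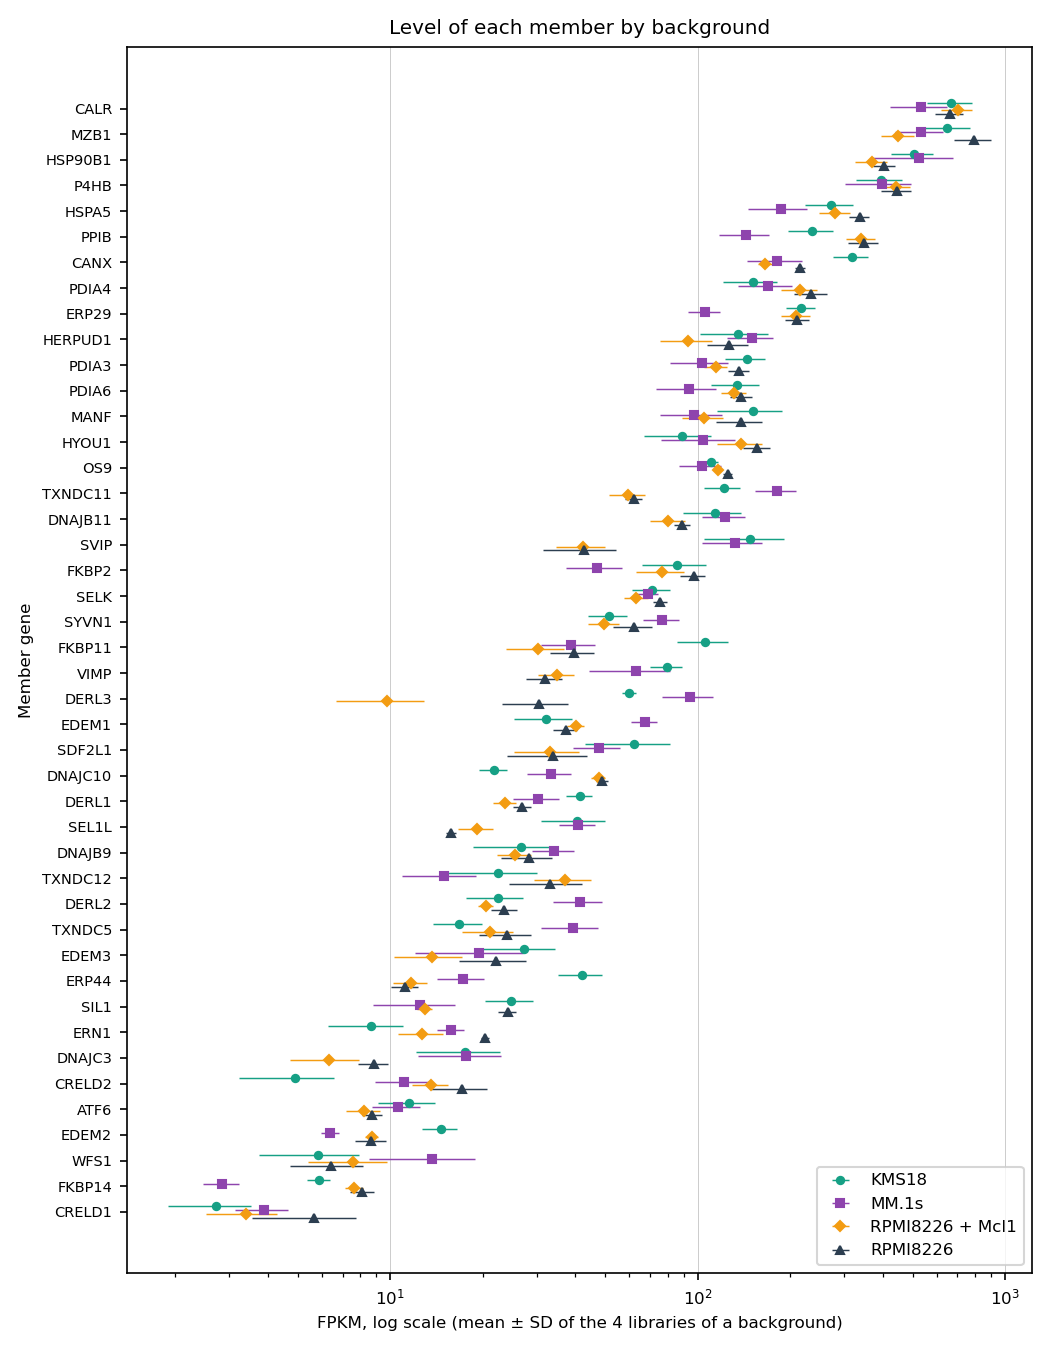
FPKM of each member on a log axis, as the mean ± SD of the 4 libraries of a background (KMS18, MM.1s, the RPMI8226 line with Mcl1 and RPMI8226 from top to bottom in each row), ordered by the mean over all 16 libraries. DERL3 in the Mcl1 line lies far left of the other backgrounds, and ERP44 and FKBP11 in KMS18 far right.

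Many members were lower in the Mcl1 line than in RPMI8226. MCL1 itself was 2.41-fold to 3.49-fold as high in the Mcl1 line as in RPMI8226 over the 4 shRNA pairs. Of 44 members 20 were lower and 2 higher in the Mcl1 line, where 34.4% of 11024 genes were called, 14.9% lower and 19.5% higher. The median member differed by -0.15, beside 0.03 for all genes. By role 7 of 11 chaperones, 2 of 10 oxidoreductases, 2 of 4 prolyl isomerases, 6 of 13 degradation factors, 2 of 3 secreted or luminal stress proteins and 1 of 3 sensors and regulators were lower. In all, 15 to 18 members passed with the libraries of 1 shRNA left out, where 24.9% to 29.2% of all genes did, and 7, all lower, passed without the shRNA term, where 22.3% of all genes did. The 2 higher members, SEL1L at 0.25 (SE 0.08, adjusted p = 0.0454) and CALR at 0.08 (SE 0.03, adjusted p = 0.0413), both lost the call when FPKM were rescaled by the median of ratios, where 26 members were lower and 3750 of 11024 genes were called. The Mcl1 line is 1 derived line, so a clonal difference and Mcl1 cannot be told apart.

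DERL3 was the farthest from RPMI8226. Its levels were 6.11, 8.53, 11.1 and 13.3 FPKM in the Mcl1 line, sorted, against 22.5, 25.8, 36.1 and 37.5 in RPMI8226. All 4 Mcl1 line libraries were below all 4 of RPMI8226, and the difference was -1.57 (SE 0.07, adjusted p = 1.29e-05). SIL1 stood at 12.01, 12.9, 13.1 and 13.9 FPKM in the Mcl1 line, against 22.5, 23.1, 24.5 and 26.2 in RPMI8226, again with no overlap and a difference of -0.85 (SE 0.07, adjusted p = 0.000168).

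MZB1 stood at 369, 467, 475 and 487 FPKM in the Mcl1 line, against 633, 821, 845 and 868 in RPMI8226, with no overlap and a difference of -0.81 (SE 0.02, adjusted p = 2.59e-06). HSPA5 (-0.26), HSP90B1 (-0.14), PDIA4 (-0.12) and HERPUD1 (-0.45) were called lower as well. SVIP (0.01), P4HB (-0.01) and ERP29 (-0.01) were near 0. Outside the list 10 of 29 other folding genes were called lower and 2 higher, and 7 of 26 other degradation genes lower and 1 higher. Of 15 other stress regulators 2 were called lower and 2 higher, with a median of -0.05. Of all genes 14.9% were called lower and 19.5% higher. The largest falls among the folding and degradation genes were those of PDIA2 (-2.10) and UBE2J1 (-0.69). The largest rise among the regulators was that of the stress factor DDIT3 (CHOP), at 0.74.

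Whether the Mcl1 line answered a hairpin otherwise than the parental lines was tested as a difference of differences over all 16 libraries and 11349 genes. For CD86 shRNA 0 of 44 members were called by limma and 0 with voom weights, where 0% of all genes were called; 2 members had an unadjusted p under 0.05, WFS1 (0.66), with a smaller fall in the Mcl1 line, and DERL3 (-0.57), with a larger one. For CD28 shRNA 0 members were called by either method and 0 had an unadjusted p under 0.05, where 0.00881% of all genes were called. The estimates of HSPA5, HSP90B1, PDIA4, HERPUD1 and DERL3 for CD86 shRNA were 0.14, 0.07, 0.19, -0.29 and -0.57, with standard errors of 0.20 to 0.28. For CD28 shRNA they were -0.10, -0.26, -0.01, -0.29 and -0.43. Each shRNA has a single library in the Mcl1 line, and the spread behind these standard errors is that of the parental lines.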

How the data were processed

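Per the labels' protocols, RNA came from Qiagen RNeasy columns and went into TruSeq mRNA libraries. The authors deposited a table with FPKM per gene and library and exon lengths, and, per the file headers, their own log2 fold changes, log2 CPM, likelihood ratio scores, p-values and FDR for 3 comparisons, read here as the second-named group over the first. The submitters' processing notes name edgeR 3.12.1, R 3.2.2, Picard and TopHat2 2.0.13, and the builds mm9, GRCh37 and hg19, with no roles. With no strand setting stated, reads of overlapping or antisense genes cannot be told apart.

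FPKM times exon length came out as whole reads for 100% of values (tolerance 0.02 of a read). Library totals so computed were 4690942 to 7172402, and these reads served for depth and for voom.

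Differences were fitted with limma 3.58.1 in R 4.3.3 (eBayes with trend) on log2(FPKM + 1), which understates the change of low genes. Genes averaging 1 FPKM or more were kept, and p-values, two-sided, were Benjamini-Hochberg adjusted over all of them with a threshold of 0.05. The shRNAs and parental lines were compared in 12 libraries with terms for both (6 residual degrees of freedom), the Mcl1 line and RPMI8226 in 8 with shRNA as a term (3), and responses in all 16 (6). Libraries were paired by cell line, as the labels give it. Nothing states separate cultures, so p-values measure the spread between these libraries, which may be technical. The fit was tested on simulated data. Alternatives were a pseudocount of 0.1, no filter, rescaling by the median of ratios, voom, a line or shRNA left out, no pairing term, only the groups compared, both controls as the baseline, and RPMI8226 alone beside the Mcl1 line.

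Members, lists and tests were chosen with earlier results of these data known. Full values are given for members called against Vec, the 10 with the smallest p between both knockdowns and 1 direction in every line, HSPA5, HSP90B1, PDIA4, HERPUD1 and DERL3, 3 rises and 3 falls per background comparison, and up to 4 called genes per other list. Values of CRELD1, DNAJC3 and SDF2L1 per library, and full statistics of some other members, were added after the data were seen. Motifs and heptamers were exact matches found with Python 3.11.15, in the 3′ UTR of the GENCODE v29 transcript with the longest coding sequence. Protein sequences were not used here.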

Additional observations from a re-analysis of the deposited data

Results flagged for a closer look

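MANF, CD86 shRNA against CD28 shRNA, went one way in the parental lines and the other in the Mcl1 line. It was lower under CD86 shRNA in the parental lines, with log2 differences of -0.80 in KMS18, -0.23 in MM.1s and -0.22 in RPMI8226, and higher by 0.0458 in the Mcl1 line, where it stood at 92.8 FPKM under CD86 shRNA and 89.9 under CD28 shRNA. The difference between these backgrounds was not tested for this comparison. MANF was not alone in this: 31 of 44 members were lower in all 3 parental lines and 27 in all 4 backgrounds. SIL1, SEL1L and PPIB were also lower in each parental line and higher in the Mcl1 line. There they stood at 107.4%, 107.4% and 104.0% of CD28 shRNA, and MANF at 103.3%, each from 1 library against 1.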

How the results depend on the processing

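Counts of called members are given with the share of all tested genes called at the same setting. For CD86 shRNA against Vec (7 members, 0.627%) the count was 3 with no filter (0.165%), 14 with voom (2.1%), 1 with only the libraries of both groups (0.062%), 16 against the mean of Vec and Gapdh shRNA (1.81%), and 0 to 1 with a line left out (0% to 0.0821%). For CD28 shRNA against Vec (1 member, 2.83%) it was 2 with voom, 1 of them higher (5.38%), 2 against both controls (5.15%), 0 with only both groups (0.785%), and 0 to 1 with a line left out (0.293% to 1.2%). For CD86 shRNA against CD28 shRNA (21 members, 9.51%) it was 12 with no filter (3.33%), 0 with only both groups (0.0879%), and 2 to 14 with a line left out (1.22% to 4.79%). With the replicate block of cell line left out the counts were 0, 0 and 0, with 0% of all genes called in each, and 83, 204 and 350 of all genes then had an unadjusted p under 0.05. For the Mcl1 line against RPMI8226 (22 members, 34.4%) it was 7 with the shRNA block left out (22.3%). In all settings of CD86 shRNA against Vec the median member stayed between -0.41 and -0.30. The counts between parental lines moved by less than 1.5-fold under every alternative run.

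Directions that turned belonged to estimates that did not pass. Under CD28 shRNA against Vec DERL3 was 0.038 without RPMI8226 and HSP90B1 -0.024 without MM.1s. Under Gapdh shRNA HERPUD1 was -0.066 and PDIA4 -0.032 without KMS18. With RPMI8226 as the lone comparison for the Mcl1 line, the CD86 shRNA response differed by -0.045 in HSP90B1, -0.10 in HSPA5 and -0.032 in PDIA4, and the CD28 shRNA response by 0.061 in HERPUD1 and 0.13 in PDIA4. For PDIA4 the CD28 shRNA response also turned to 0.0022 after rescaling and ran from -0.075 to 0.045 with a line left out (0.0117 without KMS18). The cause was not tested. Depth limits CRELD1, CRELD2, FKBP14, SDF2L1 and WFS1, each with fewer than 100 reads in at least 1 library.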
